A study of Mus musculus with 4 samples.

Results

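The exon blocks described here carried sequencing reads on both strands of the genome. An exon block is a stretch of the mouse genome (mm9) in which the authors merged overlapping RefSeq exons of either strand. The members were chosen from the strand counts themselves: a block needed 20 or more uniquely placed reads pooled over the 2 strand-keeping libraries, and the strand with fewer reads, called the minor strand, had to hold 10% or more of them. The rule found 863 members among 33351 blocks with 20 or more reads, which is 2.59% (95% Wilson interval 2.42 to 2.76%), out of 200217 blocks in the table. The labels name C57BL/6 mice and no treatment, and the study's methods give an age of 9 to 10 weeks and housing free of specific pathogens. Small intestine (jejunum) and colon (distal colon) were each sequenced by 2 protocols. The first protocol made full-length SMART cDNA from polyadenylated RNA and fragmented it, which loses the strand. The second fragmented the RNA and ligated adaptors in a known direction (SOLiD Whole Transcriptome Analysis Kit), which keeps the strand, and its labels name ribosomal RNA-depleted RNA. The 2 libraries of the second protocol held fewer and shorter reads than the RNA-fragmented libraries in the study's text. Details taken from that text may therefore not hold for them. There was 1 library per tissue and protocol, and the study's text says that both tissues came from the same individuals but not how many mice each library held, so no value below has a replicate error. Intervals are 95% intervals that cover counting error only, and a ratio compares these libraries and not the tissues in general.

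The strand-keeping libraries held 2035386 (small intestine) and 3478387 (colon) uniquely placed reads, and the cDNA libraries 22484041 and 24798934. In blocks with annotated exons on 1 strand only, 0.559% of the small intestine reads and 0.314% of the colon reads lay on the other strand, against 51.8% in each cDNA library. Reads across annotated introns gave 0.289% (0.157 to 0.531%) and 0.111% (0.0537 to 0.229%) on the wrong strand. The tissue markers followed the labels. Sis, an enterocyte disaccharidase, had 12905 reads in the small intestine library against 257, and Car1, a colonocyte carbonic anhydrase, had 68 against 25678 in colon. Markers of pancreatic acinar cells differed between the libraries as well. Of 4 such markers, Cpa1, Pnlip and Prss2 had 217 to 1110 reads in the small intestine library and 1 to 3 in the colon library of the strand-keeping protocol, but 0 in the small intestine and 867 to 2229 in the colon library of the cDNA protocol. Cela1 had 1116 and 1119 reads in the strand-keeping and 454 and 14926 in the cDNA libraries. All 4 smooth muscle markers were higher in colon, at 518 to 878 reads per 1000000 uniquely placed reads (RPM) against 58.5 to 234 in small intestine.

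Genes on opposite strands can share DNA in several ways. Convergent neighbours run towards each other and overlap at their 3′ ends (tail to tail), divergent neighbours start close to each other (head to head), and a gene can lie inside another. RNA from the opposite strand can also be a non-coding antisense transcript, as at imprinted loci, where a long antisense RNA is tied to the silencing of genes on the same chromosome. A library that keeps the strand tells these partners apart, whereas a library that loses it adds them together.

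Convergent coding genes made up the largest annotated group, so the ends of 3 such pairs are shown. Each line gives 30 bases of the mm9 reference genome on the gene's own strand, 5′ to 3′, around the last AATAAA within 50 bases of the annotated gene end. The capitals mark this hexamer, the usual poly(A) signal that directs cleavage of the transcript. The windows are Cdc42ep1 at chr15:78681291-78681320 (plus strand), Lgals2 at chr15:78681307-78681336 (minus), Plekhh1 at chr12:80182602-80182631 (plus), Pigh at chr12:80181668-80181697 (minus), Casp9 at chr4:141371854-141371883 (plus) and Cela2a at chr4:141370882-141370911 (minus).
Cdc42ep1: tgctgtggaaatAATAAAtgtggattcttt
Lgals2: aggtcaaggtcaAATAAAagaatccacatt
Plekhh1: tgtatgtttgtcAATAAAactgtcagtgaa
Pigh: ttaaagctacacAATAAAgcttatttttta
Casp9: ttctgaaccaaaAATAAAgctgtgattgtt
Cela2a: aaaagaaatagtAATAAAgtaatttaagaa
The Cdc42ep1 and Lgals2 windows overlap on the genome, and the annotated ends of these genes overlapped by 41 bases, against 976 for Plekhh1 and Pigh and 1015 for Casp9 and Cela2a, whose exons shared 94 bases. The hexamer AATAAA, searched on the gene's strand only, lay in the last 50 bases of 238 of 420 genes that ended in a convergent member (56.7%, 51.9 to 61.3%) and of 12186 of all 22367 protein-coding genes (54.5%, 53.8 to 55.1%). Of 181 coding convergent members that held the annotated ends of both genes, 166 had ends that overlapped and 59 had the hexamer at both.

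Blocks with annotated exons on both strands were 330 of the 863 members (38.2%, 35.1 to 41.5%) but 1214 of all 33351 blocks (3.64%). In 286 of them both genes were protein-coding, and in 25 the partner was a lincRNA. Tail-to-tail pairs accounted for 278 of the 330, head-to-head pairs for 23 and nested genes for 29. Among all blocks of this class with 20 or more reads, 35.9% (32.6 to 39.3%) of the tail-to-tail blocks were members, against 16.0% (10.9 to 22.8%) of the head-to-head and 9.83% (6.93 to 13.8%) of the nested blocks. A further 57 members lay in the body of an opposite-strand gene without touching its exons, which was 5.27% of the 1082 such blocks. Another 72 had an opposite-strand gene within 1000 bases, 5.03% of the 1430 such blocks. Of these 72 members 64 were tail to tail, as were 922 of the 1430 blocks. For 391 members (45.3%) no opposite-strand gene was annotated within 1000 bases, which was 1.32% of the 29567 such blocks. The last 13 members, 22.4% (13.6 to 34.7%) of 58 such blocks, held no exon of GENCODE M1, the annotation used for all these classes. Members were long: their median length was 1918 bases against 196 for all blocks.

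**Figure D1:**
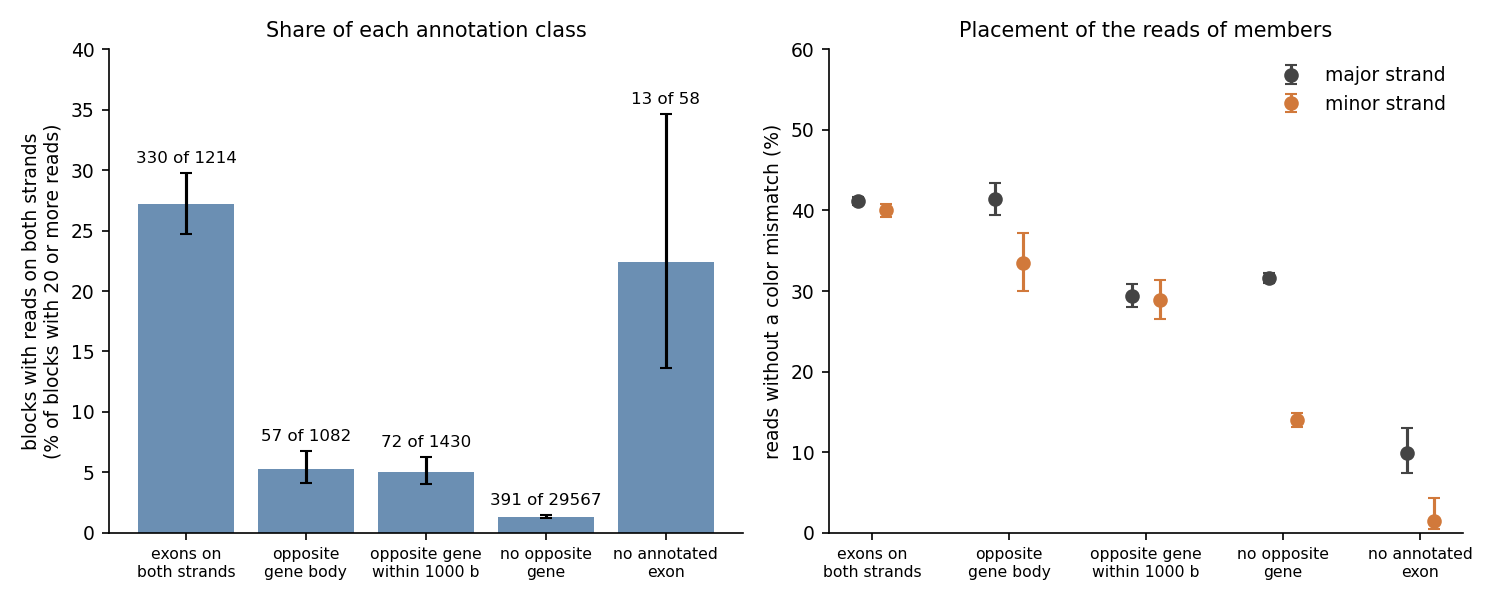
Left, the percentage of exon blocks with 20 or more reads that were members in each annotation class, with 95% Wilson intervals and the counts above the bars. Right, the percentage of reads without a color mismatch on the major and the minor strand of the members, with 95% Wilson intervals. Blocks with exons on both strands were members most often (330 of 1214), though the interval for blocks without an annotated exon (13 of 58) overlapped theirs. The strands of members with exons on both strands had close shares (41.2% and 40.04%). Those of members without an annotated opposite gene differed (31.6% and 14.0%).

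The members held 22761 minor-strand and 64226 major-strand reads. Blocks with exons on both strands carried 13837 of the minor-strand reads (60.8%), and blocks with no opposite gene 6732 (29.6%). The number of minor-strand reads per member ran from 2 to 1192 with a median of 10, and 484 members had 10 or more. The share itself was the selection rule and had a median of 21.3%. The members just inside the threshold among blocks with 200 or more reads were Ccnd3/Bysl at 10.6%, 4930539E08Rik at 10.7% and Acnat1 at 10.7%. Just outside lay Slc35e2 at 9.76%, Dkc1/Mpp1 at 9.67% and Cyfip1/Nipa2 at 9.64%. No read lay on the minor strand in 29241 of the 33351 blocks (87.7%).

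The quality of the placements, which the rule did not use, separated the classes. In blocks that were no member, 41.7% of major-strand and 26.1% of minor-strand reads matched without a color mismatch. In members with exons on both strands the share was 41.2% (40.7 to 41.7%) on the major and 40.04% (39.2 to 40.9%) on the minor strand. In members with no opposite gene it was 31.6% (31.0 to 32.3%) on the major and 14.0% (13.2 to 14.8%) on the minor strand. Of those 391 members, 235 (60.1%) had no minor-strand read free of mismatches, near the 64.3% of the 3247 blocks with minor-strand reads that were no member, whose median was 2 such reads against 9. The share was under 10% on the minor strand of 250 of the 391, on the major strand of 55, and on both strands of 39, which are counted in both. Members with a gene body on the other strand gave 41.4% on the major and 33.5% on the minor strand. Those with a nearby gene gave 29.4% and 28.8%, with medians per block of 40.3% and 33.3%. At most 1 mismatch was allowed in an alternative count, under which 243 of the 330 members with exons on both strands (73.6%) still met the rule, but 82 of the 391 with no opposite gene (21.0%). Placement was called unique among exons and junctions and not in the whole genome, and its part in these shares was not tested.

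**Figure D2:**
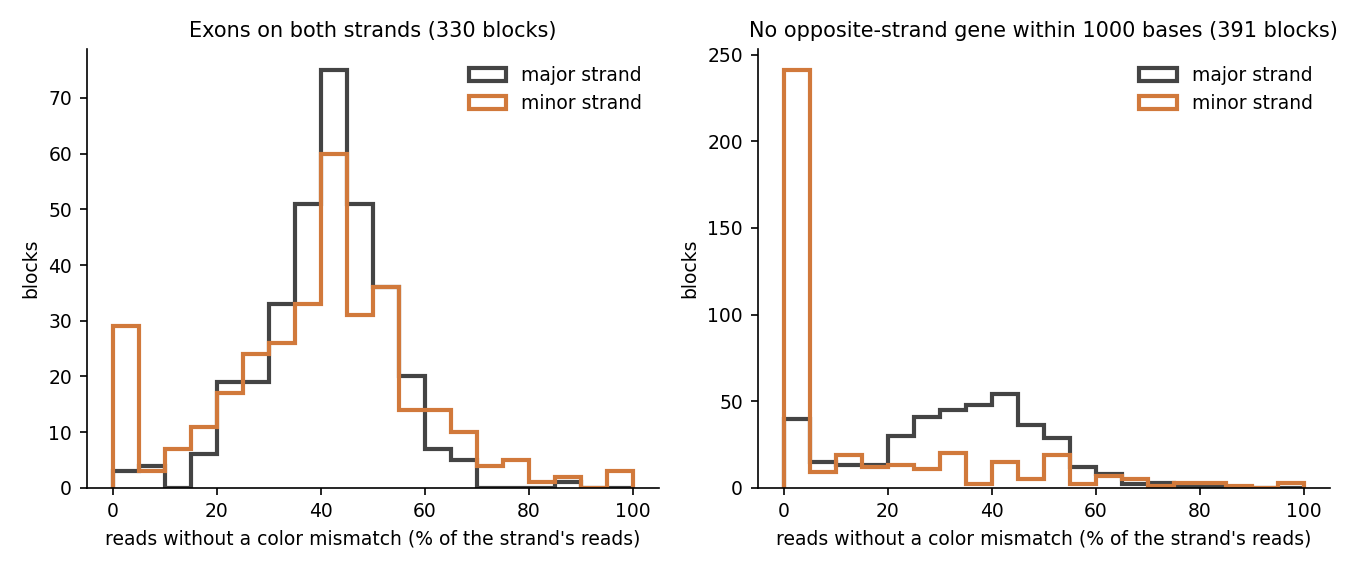
Number of members by the percentage of reads without a color mismatch on each strand, in steps of 5%, for the 330 blocks with exons on both strands (left) and the 391 with no opposite-strand gene within 1000 bases (right). The minor strand of the left group had a median of 40.6%, next to 41.9% for the major strand. The right group had a median of 0 on the minor and 34.9% on the major strand.

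Some minor strands rested on few positions. On 131 members 1 start point held 50% or more of the minor-strand reads, 84 of them among the 391 with no opposite gene and 25 among the 330 with exons on both strands. The same held for 2474 of the 3247 blocks with minor-strand reads that were no member, whose median was 2 such reads. Over all members there were 1.62 reads per start point on the minor strand and 1.85 on the major strand. Blocks that were no member had 1.24 on the minor and 3.47 on the major strand. In members with exons on both strands, 80.8% of minor-strand reads started within an annotated exon of their own strand, and 92.0% of major-strand reads did. The stretch that exons of both strands share had a median length of 352.5 bases in the 310 members where it existed. It made up 23.7% of the bases of these blocks and held 27.0% of the minor-strand and 22.3% of the major-strand reads of all 330. Reads of both strands were found inside the shared stretch of 224 members, and 10 or more of each in 79.

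The tissue ratio was taken for each strand as RPM in colon over RPM in small intestine, and a ratio of 3 or more in either direction was counted where the strand had 10 or more reads. The rule used the strand counts pooled over the tissues, which are the sums of the counts in these ratios, so the ratios are not independent of the choice of members and are given as a description. Each library on its own met the rule, its 20 reads included, in 251 of the 863 members. On the major strand 112 of 863 members (13.0%) were 3-fold higher in colon and 75 (8.69%) in small intestine, beside 17.8% and 10.8% of all 53727 block strands with 10 or more reads. On the minor strand 43 of 484 (8.88%) were higher in colon and 98 (20.2%) in small intestine, the reverse order of the background. A ratio of 3 can come from counting error at such depths, and the interval excluded 1 in 106 and 73 of the major-strand and in 34 and 85 of the minor-strand calls. Members with no opposite gene gave 60 of these 98, with 4 higher in colon, out of 177, while members with exons on both strands had 35 and 20 of 247. Without members whose minor strand had under 10% of reads free of mismatches, the minor strand gave 42 in each direction of 353. With reads of at most 1 mismatch the minor strand gave 43 higher in colon and 22 in small intestine of 242, beside 19.4% and 10.1% of all strands. The small intestine calls were then no longer the more frequent, and both counts were near the background. Scaling by the median of ratios shifted all log2 ratios by 0.18 towards small intestine. It gave 93 and 100 on the major and 39 and 111 on the minor strand, beside 15.1% and 12.7% of all strands.

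The tissue ratios of the strands of a member were weakly related. Over the 244 members with 20 or more reads on each strand, Spearman's rho between the log2 ratios of the strands was 0.18, a description over blocks that share the same 2 libraries, and the median absolute difference was 0.99. The strand balance, the minor-strand ratio divided by the major-strand ratio, reached 3-fold in either direction in 177 of 484 members (36.6%). Its interval excluded 1 in 135 of them (27.9%). The background was 37.1% and 28.9% of the 644 blocks with 10 or more reads on each strand. These blocks include the 484 members, and the members' share was close to that of the background. Both strands passed 3-fold in opposite directions in 14 of the 484 members (2.89%) and in the same direction in 22 (4.55%), near the background of 3.26% and 3.88% of the 644 blocks.

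**Figure D3:**
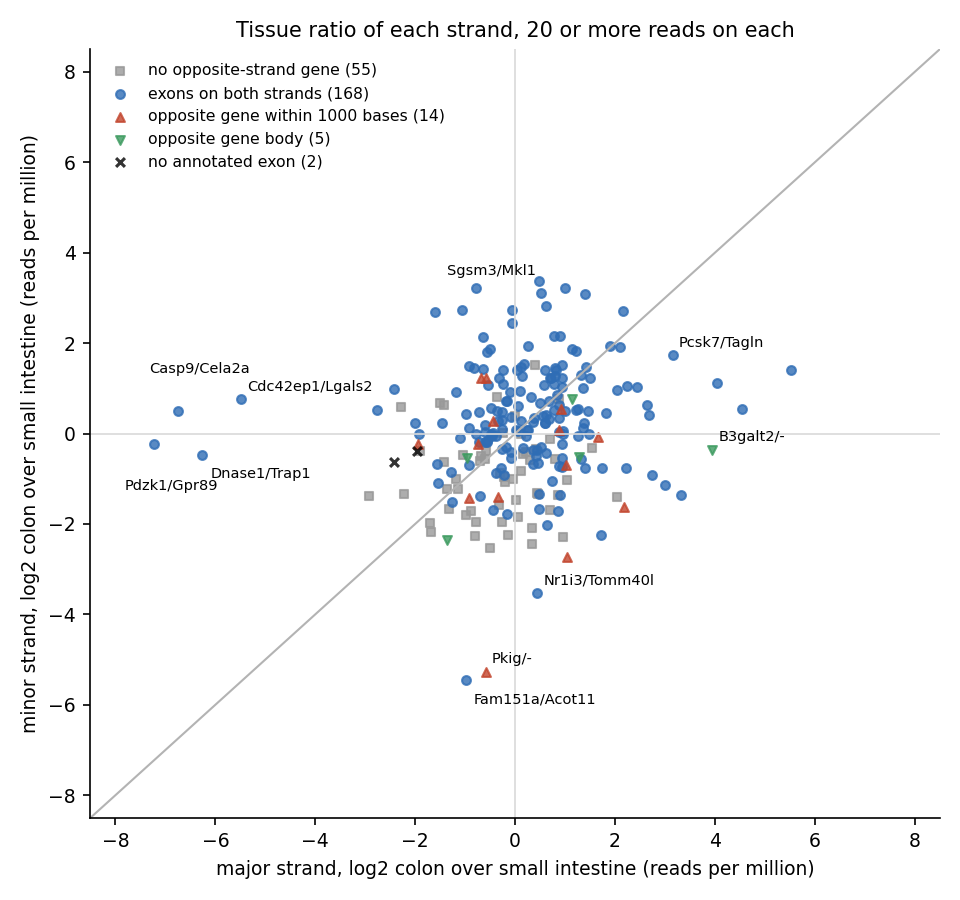
Log2 ratio of colon over small intestine on the minor strand against that on the major strand, for the 244 members with 20 or more reads on each strand, by annotation class. A count of 0 was set to 3 reads, the diagonal marks equal ratios, and named pairs are labelled plus-strand gene first. Points far from the diagonal are blocks whose strands differed in tissue ratio, such as Casp9/Cela2a and Pdzk1/Gpr89 at the left edge and Fam151a/Acot11 and Pkig at the bottom.

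In several convergent blocks 1 gene was far higher in small intestine while its partner stayed under 3-fold in either direction. Such blocks could be members through 1 tissue, mostly the one where a strand was high. Fam151a/Acot11 and Casp9/Cela2a had no colon read on one of their strands, and the larger Pdzk1/Gpr89 block and Dnase1/Trap1 had 1. In Nr1i3/Tomm40l the strands had 4 and 79 colon reads. Lgals2 encodes galectin-2, a sugar-binding protein of the gut epithelium, and Cdc42ep1 an effector of the small GTPase Cdc42 (block chr15:78679595-78681579). Lgals2 had 261 reads in small intestine and 10 in colon, 44.6-fold higher in small intestine (23.9 to 94.1). Cdc42ep1 had 21 and 61 reads, 1.70-fold higher in colon (1.02 to 2.94). In small intestine alone the Cdc42ep1 strand fell under the 10% share. The block met the rule in colon, where Lgals2 was low. In such whole tissue, fewer cells of a type and less RNA per cell cannot be told apart. The median plus-strand read began 1208.5 bases into the block and the median minus-strand read 1846 bases, and 5 Lgals2 reads and 0 Cdc42ep1 reads fell in the shared 41 bases.

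Pdzk1 encodes a scaffold that anchors transporters in the brush border, and Gpr89 a channel of the Golgi (chr3:96674033-96674847). Here the exons of both genes spanned all 815 bases of the block. Pdzk1 had 88 small intestine and 1 colon reads, a ratio of 150 in favour of small intestine with an interval of 26.3 to 6007. Gpr89, on the same bases, had 29 and 42 reads, 1.18-fold higher in small intestine with an interval (0.709 to 1.94) that included 1. A neighbouring shorter block of the same genes gave 16 and 0 reads for Pdzk1, 18.75% of them free of mismatches, and 2 and 15 for Gpr89. There Gpr89 had a ratio of 4.39 in favour of colon (1.02 to 39.6), unlike in the larger block, and this block is among the 14 with opposite directions. The cDNA libraries, which add the strands, had 398 and 3.36 RPKM (RPM per kilobase of block) over the larger block.

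Fam151a and Acot11, an acyl-CoA thioesterase, shared 1263 exon bases (chr4:106417166-106421088). Fam151a had 77 small intestine and 0 colon reads, at least 43.9-fold higher in small intestine with the colon count set to a floor of 3 reads per library. That floor leaves out the error of the 77 reads, and the exact interval starts at 34.8. Acot11 had 189 and 163, 1.98-fold higher in small intestine (1.598 to 2.46). Of the reads on the Fam151a strand 18.2% were free of mismatches, against 43.75% on the Acot11 strand. Nr1i3 encodes the xenobiotic receptor CAR, and its block was shared over 1857 bases with Tomm40l, a subunit of mitochondrial import (chr1:173147934-173149790). Nr1i3 had 27 reads in small intestine and 4 in colon, 11.5-fold higher in small intestine (4.02 to 45.4), and Tomm40l 34 and 79. Of the 113 Tomm40l reads 57 began at 1 start point. Dnase1, a secreted nuclease, had 45 and 1 reads, a ratio of 76.9 in favour of small intestine (13.1 to 3104), while its partner Trap1, a mitochondrial chaperone, had 9 and 11.

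Casp9, an initiator caspase, ended tail to tail with Cela2a, which encodes a pancreatic elastase (chr4:141369510-141371889). Cela2a had 188 small intestine and 0 colon reads, at least 107-fold higher in small intestine against the same floor, with an exact interval that starts at 86.2. Casp9 had 48 and 116, 1.41-fold higher in colon (1.002 to 2.02). Cela2a moved with the acinar markers Cpa1, Pnlip and Prss2 given above, but not with Cela1, which had 1116 and 1119 reads in these libraries. The part of acinar cells in this block was not tested. In the cDNA libraries, which add the strands, the block was 1.66-fold higher in colon (1.47 to 1.88). The acinar markers were higher in colon in that protocol, and Casp9 alone was higher in colon in the strand-keeping one.

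**Figure D4:**
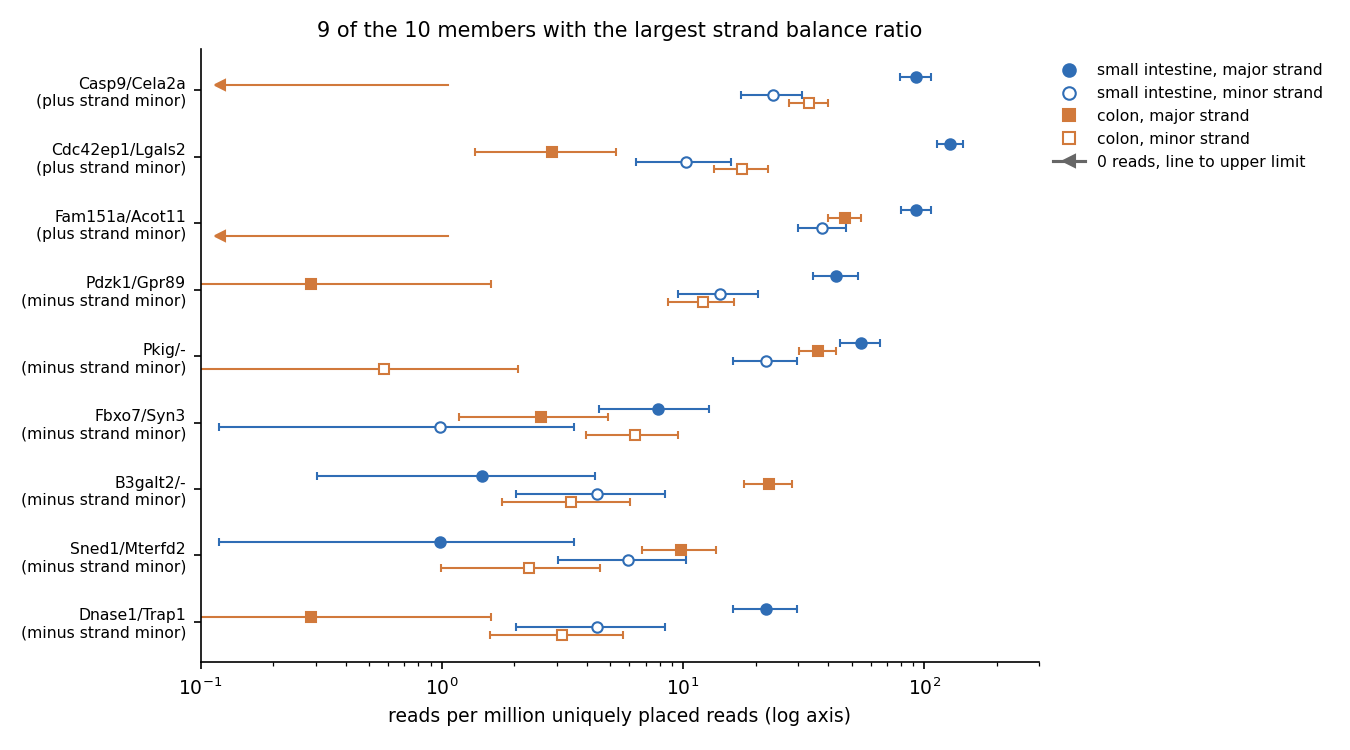
Level in RPM on the major (filled) and minor (open) strand of 9 of the 10 members with the largest strand balance ratio, in small intestine (blue) and colon (orange), with exact Poisson intervals on a log axis. Labels give the plus-strand gene first, and arrows mark strands without a read. In Casp9/Cela2a, Cdc42ep1/Lgals2, Pdzk1/Gpr89 and Dnase1/Trap1 the major strand was far lower in colon while the minor strand stayed under 3-fold in either direction.

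The colon side held a different set of partners. Tagln encodes transgelin, an actin-binding protein of smooth muscle, and its neighbour Pcsk7 a proprotein convertase (chr9:45736594-45738597). Tagln had 83 reads in small intestine and 1261 in colon, 8.89-fold higher in colon (7.12 to 11.2), and Pcsk7 77 and 436, 3.31-fold higher (2.60 to 4.28). Both strands exceeded 3-fold in colon. All 4 smooth muscle markers were higher in the colon library too, and their part in these ratios was not tested. The strand of Nox1, an NADPH oxidase, had 0 small intestine and 44 colon reads, at least 8.58-fold higher in colon against the floor, with an exact interval that starts at 6.69. Of these reads 16 began in an annotated exon of that strand. Cstf2, a factor of mRNA 3′ end cleavage on the other strand, had 54 and 133, 1.44-fold higher (1.04 to 2.02). Without a small intestine read on the Nox1 strand, this block was a member through colon only.

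Further minor strands with high colon ratios belonged to Sgsm3, Rasd1, B3gnt9-ps and Endog. Sgsm3 had 5 and 80 reads, 9.36-fold higher in colon (3.85 to 29.6), while Mkl1, a coactivator of serum response factor, had 45 on each side, 1.71-fold higher in small intestine (1.11 to 2.64). Rasd1, a steroid-induced Ras-like protein, had 3 and 53 reads, a ratio of 10.3 (3.35 to 51.7), beside Med9, a Mediator subunit, at 31 and 74. In small intestine alone the Rasd1 strand fell under the 10% share. B3gnt9-ps had 3 and 48 (9.36, 3.02 to 47.0), and Endog, a mitochondrial nuclease, 2 and 29 (8.48, 2.15 to 73.4). In Endog/D2Wsu81e both strands were higher in colon and the interval of the balance included 1 (0.509 to 34.7). The strands of Fbxo7, an F-box protein, and Syn3, a synapsin, went opposite ways, with 16 and 9 reads on the Fbxo7 and 2 and 22 on the Syn3 strand. Of the 24 reads on the Syn3 strand 1 began in an annotated exon of that strand, and 16 of 25 did on the Fbxo7 strand, so the names mark strands here. Sned1 had 2 and 34 reads and its partner Mterfd2 12 and 8, a balance 25.5-fold (4.12 to 257) towards Sned1 in colon. The Endog/D2Wsu81e, Fbxo7/Syn3 and Sned1/Mterfd2 blocks had fewer than 20 reads in small intestine and met the rule in colon only.

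Among the 14 members with opposite directions, Oxa1l/Slc7a7 had the most reads and is named for that after its values were seen. Slc7a7, a basolateral transporter of cationic amino acids, had 105 reads in small intestine and 38 in colon, 4.72-fold higher in small intestine (3.23 to 7.04). Oxa1l, an insertase of the inner mitochondrial membrane, had 32 and 180, 3.29-fold higher in colon (2.25 to 4.96).

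The pairs with most reads were partly less divided. Ctsb, a lysosomal protease, had 537 and 1770 reads, and Fdft1, squalene synthase, 68 and 334, 1.93-fold (1.75 to 2.13) and 2.87-fold (2.21 to 3.79) higher in colon. The cDNA libraries showed no such excess over this block, with 17167 and 18507 reads and a ratio of 0.977 (0.957 to 0.998). Gnpnat1, an enzyme of hexosamine synthesis, had 54 and 498 reads, 5.40-fold higher in colon (4.07 to 7.29), and the strand of Styx, a catalytically inactive phosphatase, 59 and 207, 2.05-fold (1.53 to 2.79). Of the 266 reads on the Styx strand 30 began in an annotated exon of that strand. By cDNA this block was 1.68-fold higher in colon (1.59 to 1.77), below both strand ratios. Plekhh1 had 76 and 134 reads and Pigh, which acts in the first step of GPI anchor synthesis, 53 and 166. Their ratios were 1.03 (0.773 to 1.39) and 1.83 (1.34 to 2.55).

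Where an opposite gene was annotated beside or around the block but had no exon in it, only 1 strand of the block was annotated, and it could be the minor or the major strand. The Pkig block, of a protein kinase A inhibitor, lies tail to tail with Ada, adenosine deaminase. Its minus strand had 45 small intestine and 2 colon reads, a ratio of 38.5 in favour of small intestine (10.0 to 327), and its plus strand 111 and 126. Of the plus-strand reads 171 began at 1 start point. Nfic, a nuclear factor I protein near 2210404O07Rik, had 27 and 7 plus-strand reads and 44 and 155 on its own strand. In colon alone the minor strands of the Pkig and Nfic blocks fell under the 10% share. Sdr39u1 near Khnyn and Inpp5f near Mcmbp had ratios of 1.20 (0.668 to 2.24) and 1.05 (0.594 to 1.92) on the minor strand. In the Car9 block, of a carbonic anhydrase near Tpm2, all 596 minus-strand reads began at 1 start point and none was free of mismatches. The plus strand, that of Car9, had 67 and 98 reads, 38.2% of them free of mismatches. B3galt2, a galactosyltransferase, lies within Cdc73 and had 3 and 79 reads, 15.4-fold higher in colon (5.08 to 76.3), with 9 and 12 on the Cdc73 strand. With fewer than 20 reads in small intestine, the B3galt2 block met the rule in colon only. Hbp1 in the body of Cog5 had 81 and 303 reads with 25 and 73 on the other strand, Asf1a in Mcm9 had 13 and 54 with 10 and 12, and Psip1 in Snapc3 had 17 and 15 with 11 and 13.

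The largest member without an opposite gene in GENCODE M1 was an 83436-base block at chr7:150399016-150482451 in Kcnq1, a potassium channel gene of an imprinted domain. GENCODE M1 placed 1 Kcnq1 exon in it, where 25 of the 1236 plus-strand reads began. RefSeq's gene table for GRCm38.p6 names Kcnq1ot1, the long antisense RNA of this domain, with a length of 83437 bases, 1 more than this block. Blocks were merged from RefSeq exons of either strand, whereas GENCODE M1, which set the classes, names no Kcnq1ot1. The 759 minus-strand reads of this block are thus counted among the 6732 minor-strand reads of members with no opposite gene. The plus strand had 755 reads in small intestine and 481 in colon, and the minus strand 360 and 399. The first 20000 bases, set apart after the reads had been plotted, held 54.4% of the plus-strand and 70.4% of the minus-strand reads, and 5.65% and 0.936% of these were free of mismatches. Over the rest of the block the shares were 44.5% and 38.2%, where blocks that were no member had 41.7% on the major and 26.1% on the minor strand. There the plus strand had 324 and 240 reads and the minus strand 78 and 147.

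**Figure D5:**
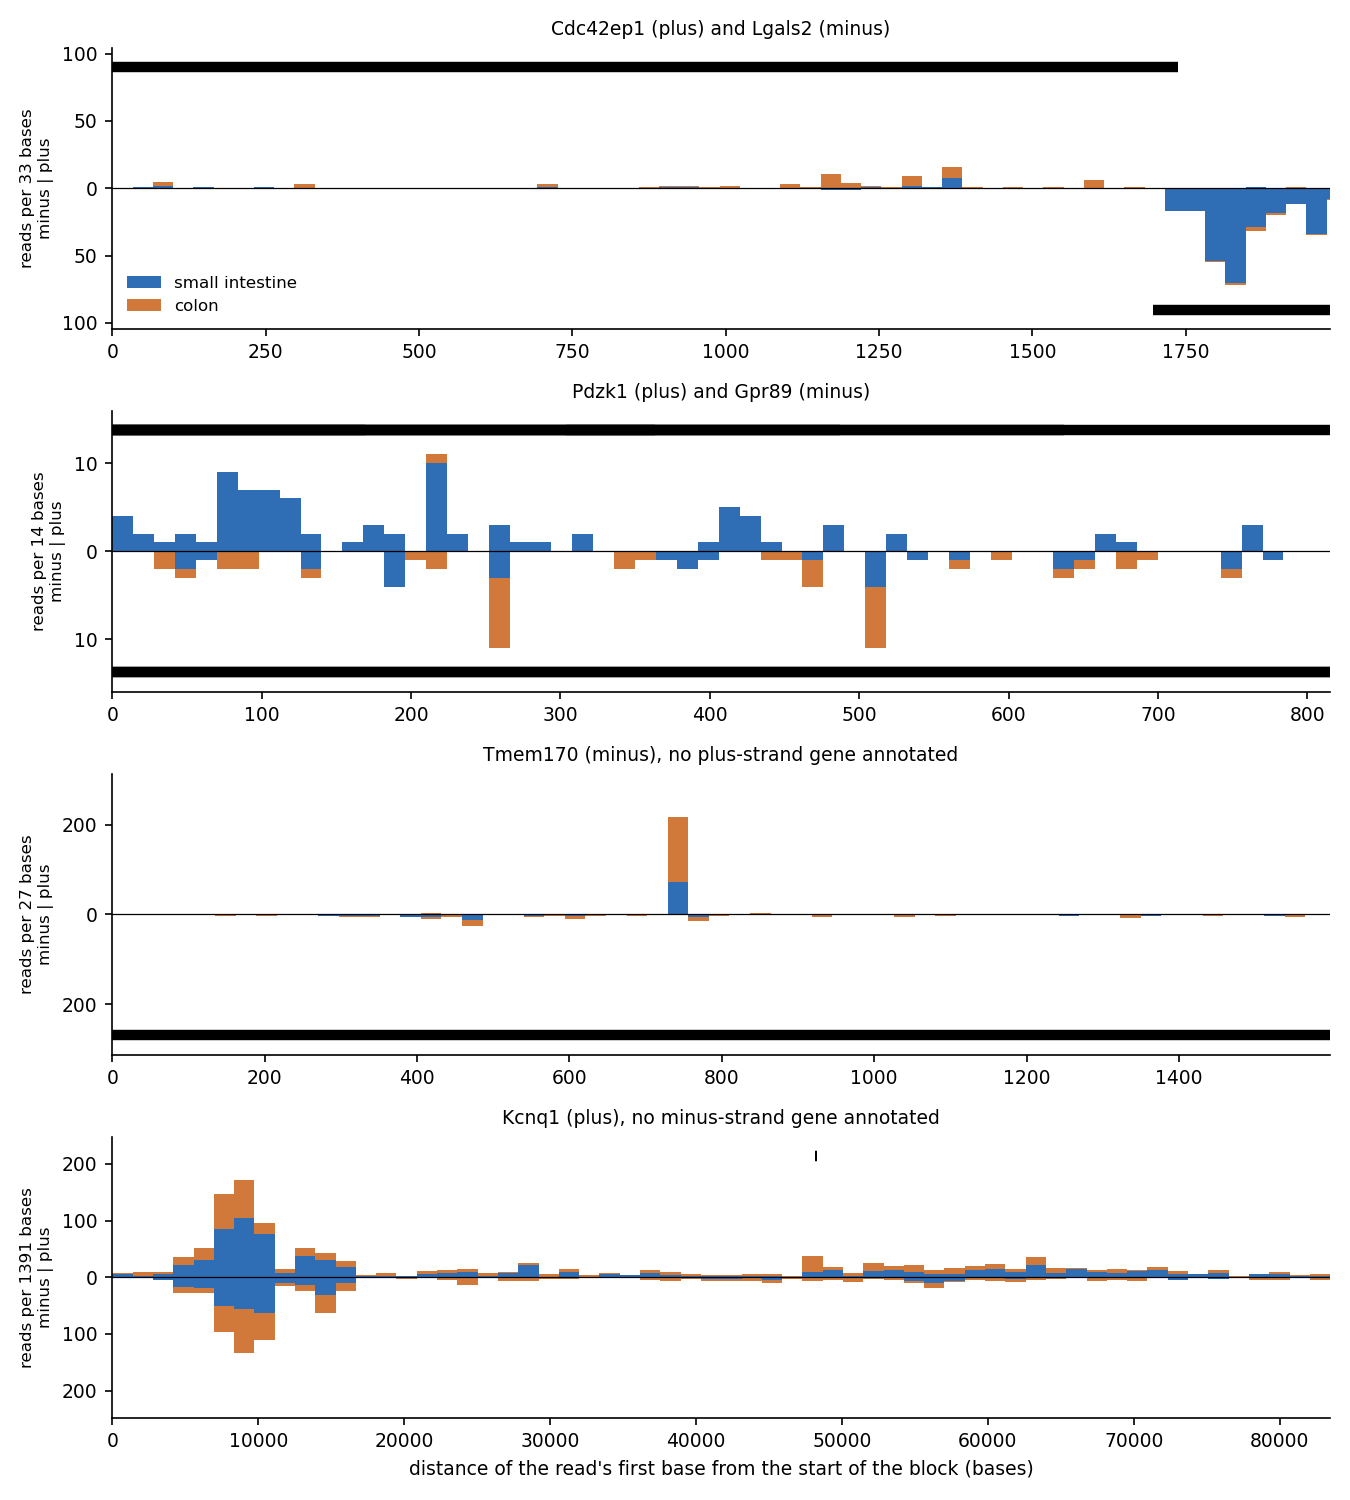
Reads by the distance of their first base from the start of the block, plus strand upwards and minus strand downwards, in small intestine (blue) and colon (orange), for 4 members. Black bars are GENCODE M1 exons of each strand. Lgals2 and Cdc42ep1 reads lie mostly in different parts of the block, Pdzk1 and Gpr89 cover the same bases, the plus-strand reads of Tmem170 stand at few positions, and the Kcnq1 block shows both strands along its length with most reads in the first 20000 bases.

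Other members with many minor-strand reads had few reads free of mismatches on 1 strand or both. Tmem170 had 91 and 103 reads on its own strand, 40.2% free of mismatches, and 71 and 150 on the plus strand at 15 start points, none free of mismatches. Cmah, the hydroxylase of CMP-sialic acid, had 115 and 315 reads on its own strand (28.6% free of mismatches), 1.603-fold higher in colon (1.29 to 2.002), and 328 and 199 on the other (5.69%), 2.82-fold higher in small intestine (2.35 to 3.38). Zfp353 and Grk4 had under 6% of such reads on both strands. Aplf had 27 and 8 minus-strand reads, 5.77-fold higher in small intestine (2.55 to 14.7), with 20% free of mismatches. The member with most minor-strand reads was SNORA17/Gm4759, a 17289-base block with exons on both strands, in which 3 of the 1192 plus-strand and 184 of the 1822 minus-strand reads began in an exon of their strand. It had 662 and 530 on its plus strand and 1146 and 676 on its minus strand, of which 9.14% and 7.14% were free of mismatches. Zfp942, near Zfp943, had 205 and 130 plus-strand reads, 0.597% of them free of mismatches. Of the 5 members with most minor-strand reads among those with no exon, the shares were 0 to 1.19% on the minor strand.

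For 520 members with exons on 1 strand, the annotated strand had more reads in 454 and the opposite strand in 65 (12.5%), with 1 tie. Blocks that were no member were not counted in this way, so this share has no background. In the Car9, Tmem170, Grk4, Cmah, Zfp353 and Aplf blocks the opposite strand had more reads, of which 0 to 17.0% were free of mismatches. On the major strand of blocks that were no member this share was 41.7%. The part of placement in the 65 was not tested.

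A list of 31 genes of overlapping or antisense pairs was looked up, of which 29 were found, 21 had a block with 20 or more reads and 10 fell in 7 members. Counted for each gene, 10 of the 94 blocks with 20 or more reads were members, beside 2.59% of all such blocks. The list was written with earlier results of these data known. Nr1d1, the clock repressor Rev-erb alpha, had 37 and 60 reads in the block it shares with Thra, the thyroid hormone receptor, at 12 and 14 (ratios 0.949, 0.620 to 1.47, and 0.683, 0.293 to 1.62). On the Thra strand 15.4% of the reads were free of mismatches, and on the Nr1d1 strand 30.9%. Nudt6, antisense to the growth factor gene Fgf2, had 7 and 15 reads in the shared block and the Fgf2 strand 1 and 4, of which 1 began in an exon. The Hoxa11 block had 0 reads on either strand in small intestine, and in colon 24 on the Hoxa11as strand and 5 on the Hoxa11 strand. Toe1 had 14 and 26 reads beside Tesk2, which is not on the list, at 86 and 78. Airn had 3 and 26 reads on its strand and 2 and 4 on the other, none of the latter free of mismatches. A second list held 20 abundant genes of the gut, of which 19 were found. None of their 161 blocks with 20 or more reads was a member, and 3 of 125468 reads lay on the antisense strand (0.00239%), for Actb, Eef1a1 and Myh11.

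In the cDNA libraries members could be measured by level only: the plus strand held a median of 50.3% of their reads (5th to 95th percentile 37.5 to 64.1%). Their median level was 3.35 RPKM in small intestine and 4.36 in colon, against 9.92 and 10.4 for all blocks with 20 or more reads. Over 831 members with 20 or more cDNA reads, the ratio of colon over small intestine had a Spearman's rho of 0.37 with that of the strand-keeping libraries, both strands added, which is given as a description over blocks. Of 133 such members whose strand balance reached 3-fold with an interval that excluded 1, the cDNA ratio lay between the ratios of the strands in 96, outside them in 37, and nearer to the major strand in 99. Cdc42ep1/Lgals2 was 70.1-fold higher in small intestine by cDNA (65.2 to 75.5), which is the side of Lgals2, and Sgsm3/Mkl1 5.94-fold higher in colon (5.01 to 7.08), the side of Sgsm3. B3galt2 was 28.6-fold higher in colon (12.9 to 78.8).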

How the data were processed

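The deposited match files hold 1 line per read of 35 colors with its reference number, signed position and color mismatches, and the authors kept reads with up to 3 mismatches and 1 placement. Per the file headers, matching used mm9 RefSeq exons, merged into blocks, and exon-exon junctions, not the genome, whereas the study's methods describe another matching. A read that also matches an intron or a repeat elsewhere still counts as unique. The signed position gives the strand. Counts per block and strand were computed here, with 3 bases of tolerance at block borders. Decoding 20000 reads without mismatches per strand-keeping library returned the genome sequence at the stated position and strand for 20000 of each. Genes came from GENCODE M1 on the same build. Labels name the gene with most exon bases per strand. RPM divides by all uniquely placed reads. Share intervals are Wilson, ratio intervals exact conditional binomial, and levels exact Poisson. Strand ratios rest on 1 library per tissue and could not be tested. A fit of block levels over the 4 libraries with the protocol as a term would leave 1 residual degree of freedom and was not run. A gene name marks the strand of a block, and its reads need not lie in that gene's exons. The script that makes the tissue calls was tested on simulated data with known changes, which bears on the code and not on replicate error. Python 3.11.15, NumPy 2.4.6, pandas 2.3.3, SciPy 1.17.1, pysam 0.24.0 and matplotlib 3.10.9 were used.

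Members were named by fixed rules: the 10 with most minor-strand reads, the 5 with the largest minor-strand tissue ratio in each direction among those with 20 or more minor-strand reads, the 5 with most minor-strand reads per annotation class, the 10 with the largest strand balance among those with 20 or more reads on each strand, the 3 on each side of the threshold, and members of the gene lists. Members and lists were chosen with earlier results of these data known. The labels give ribosomal RNA depletion for the strand-keeping libraries, while the study's methods describe polyadenylated RNA for that protocol, and the labels were followed. The cDNA libraries have the same read totals as in the study's text. The strand-keeping libraries held 36419942 (small intestine) and 37466674 (colon) reads in total, fewer and shorter than the study gives for its RNA-fragmented libraries. They are therefore not the data set that its text summarizes for that protocol. Some members that these rules name are not reported here.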

Additional observations from a re-analysis of the deposited data

Results flagged for a closer look

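The tissue ratio of both strands together was 3-fold or more in opposite directions in the protocols in 3 members, of which 2 are given here. The difference was not tested, and each rests on few reads in 1 library per group. Pcdhb5 had a log2 ratio of colon over small intestine of -1.91 in the strand-keeping libraries (22 reads in small intestine and 10 in colon) and 1.93 in the cDNA libraries (5 and 21). Ube1y1 had -2.77 (20 and 5 reads) and 4.77 (1 and 30).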

How the results depend on the processing

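Of 37 alternatives 20 moved a value by more than its limit. The split of the tissue calls turned in 2 of them: the minor strand went from 43 higher in colon and 98 in small intestine to 43 and 22 with at most 1 mismatch, and the major strand from 112 and 75 to 93 and 100 with median of ratios scaling. The minor-strand split was even, at 42 and 42, without members whose minor strand had under 10% of reads free of mismatches, and 22 and 27 with 20 or more reads. The cause of the changes in the minor-strand split was not tested, and the turn on the major strand follows from the scaling itself, which moves every ratio by the same amount. The number of members, 863, became 1420 with a minor-strand share of 5% and 483 with 20%, 1438 with a minimum of 10 reads and 401 with 50, 417 with at most 1 mismatch, of which 386 were members before, and 251 when each library had to meet the rule on its own. It was 542 without members whose minor strand had under 10% of reads free of mismatches, an alternative chosen after seeing the data. The 141 minor-strand tissue calls became 72 by start points, 65 with at most 1 mismatch, 243 at 2-fold, 49 with 20 or more reads and 84 without members rich in mismatches. The 187 major-strand calls became 373 at 2-fold and 111 without those members. The 177 strand balance calls became 109 by start points, 97 with at most 1 mismatch, 270 at 2-fold and 81 with 20 or more reads. Reads per start point of 1.62 became 1.72, and the share of 31.1% of minor-strand reads free of mismatches 33.5%, in members with 20 or more minor-strand reads. Of the 44 members named by the rules, 32 met the selection rule with at most 1 mismatch and 43 by start points. Leaving out members whose minor strand stood mostly on 1 start point, also chosen after seeing the data, kept all counts within 1.5-fold. No paired analysis was possible because the labels number no replicates and only 1 library per tissue keeps the strand. Depth limits the minor strand: 379 members had under 10 reads on it and gave no ratio.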
